A study of Homo sapiens with 18 samples.

Results

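RNA from 6 libraries of ZR-75-1 cells with a knockdown of ADAR was compared here, 3 treated with triptolide against 3 given DMSO, out of 18 libraries in the study. The members were taken by sample title. ZR-75-1 is an established line of estrogen receptor-positive luminal breast cancer, and ADAR is the adenosine deaminase that edits double-stranded RNA to inosine. All 6 libraries share the knockdown, a change to medium with 1% serum and a 16 h treatment, with triptolide at 100 nM in 1 group and DMSO, the vehicle, in the other. How the knockdown was made is not given in the sources used here, and a single knockdown line stands for the genotype. The other 12 libraries are 3 untreated ones of the same line and 9 of a control line under the same 3 treatments. Each group holds biological replicates numbered 1 to 3, and nothing says whether these came from separate days or cultures, so p-values measure the spread between these libraries.

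Triptolide is a diterpenoid from a medicinal vine that binds XPB (gene ERCC3), the helicase of the general transcription factor TFIIH, and stops RNA polymerase II from opening promoters. When new mRNA is no longer made, what remains of each transcript depends on how fast it decays, so mRNAs of transcription factors, histones and cell cycle regulators run down early while those of ribosomal proteins and metabolic enzymes last. Mitochondrial genes are read by a polymerase of their own, and small RNAs such as U6 and 7SL by RNA polymerase III.

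Of 21285 genes tested, 6187 (29.1%) were higher in triptolide and 5976 (28.1%) were lower at an adjusted p under 0.05 by edgeR's quasi-likelihood test with Benjamini-Hochberg adjustment. Changes of at least 2-fold were called for 3466 higher (16.3%) and 3474 lower genes (16.3%). No RNA was added as an outside standard, so every level is relative to the rest of its library. TMM scaling, used throughout, sets the typical gene near no change. Scaled to the 13 mitochondrially encoded mRNAs instead, the median over all genes moved by -1.45 on the log2 scale, and 1137 genes were higher against 14614 lower. Scaled to library totals, it moved by -0.71, with 2137 higher against 10921 lower. A rise on the TMM scale therefore means a larger share among the other transcripts, and a rise smaller than these shifts turned into a fall on the other scale.

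The libraries held 27.6e6 to 35.7e6 counts in genes. Mitochondrial ribosomal RNA took 20.2% to 31.2% of them in DMSO and 47.1% to 49.1% in triptolide, and 30.7% to 35.8% of the counts in the untreated libraries of the line. The number of genes with any count was 29522 to 30610 in DMSO and 33362 to 33607 in triptolide. The 15 luminal epithelial markers were all tested and together reached 4227 to 6359 CPM (TMM-scaled counts per 1e6) in DMSO and 3911 to 7193 CPM in triptolide, a sum to which KRT8 gave 2343 CPM on average in DMSO and 3497 CPM in triptolide. Of the 15, 9 were lower and 4 higher (median -0.64). ADAR, the targeted gene, averaged 289 ± 70 CPM (SD, n = 3) in the DMSO knockdown libraries and 468 CPM in the DMSO control libraries. Within the knockdown line ADAR stood at 293, 357 and 217 CPM in DMSO and fell to 109.6, 164 and 142 CPM in triptolide, a log2 change of -1.02 ± 0.18 (SE, edgeR adjusted p = 8.7e-05).

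**Figure D1:**
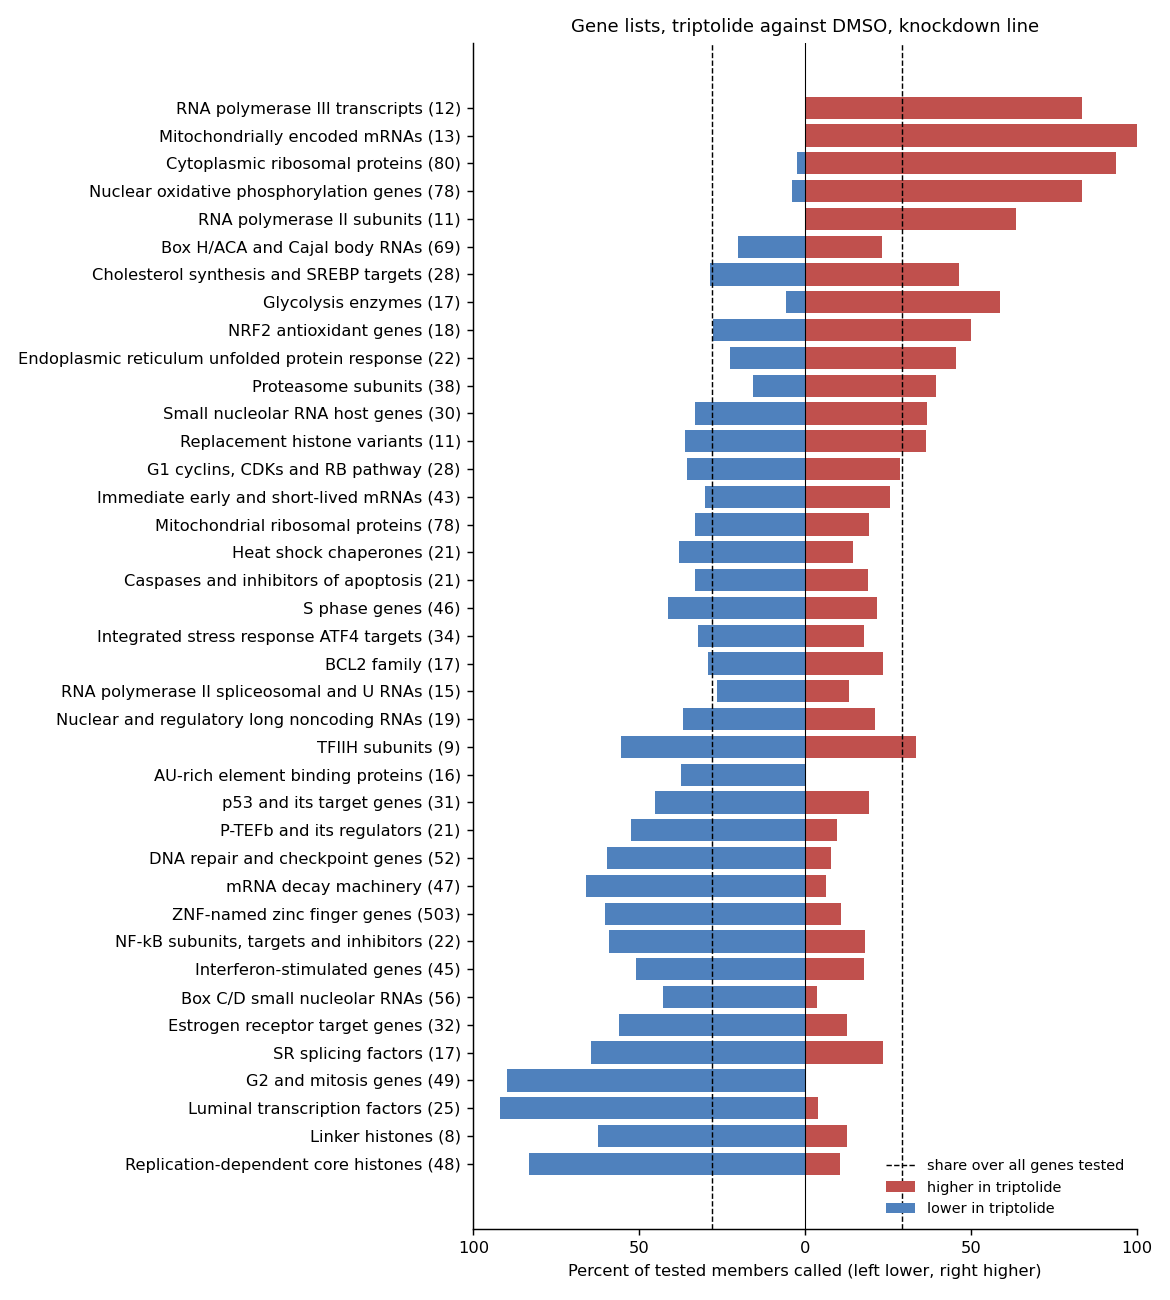
Percent of the tested members of each gene list called lower (blue, to the left) or higher (red, to the right) in triptolide, with the number of tested members in brackets; lists are sorted by median log2 fold change, and dashed lines mark 29.1% higher and 28.1% lower over all genes tested. Core histones, luminal transcription factors and mitotic genes sit at the lower end, mitochondrial and RNA polymerase III transcripts at the upper end.

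Replication-dependent histone mRNAs held the largest falls among genes of at least 10 CPM. These mRNAs are made in S phase, carry no poly(A) tail and end in a conserved stem-loop that the protein SLBP binds, and they decay quickly when they are no longer made. Of 48 tested core histone genes, 40 were lower and 5 higher, with a median log2 change of -3.47 against 0.05 over all genes. All 10 genes picked as the largest falls encode histones: H1-5, H1-3, H1-4, H2AC4, H3C12, H2BC14, H4C3, H4C5, H4C4 and H3C7.

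The stem-loop was sought on the sense strand of GENCODE transcripts as a run of 16 bases: GG, any 2 bases, CTTTT, any base, AG, any 2 bases, CC. The 3 forms carried by most histone genes are shown because the genes that carry them include the mRNAs that fell most. The loop is in capitals.
Form with T-A pair, C loop: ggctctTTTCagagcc
Form with C-G pair, C loop: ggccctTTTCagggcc
Form with T-A pair, A loop: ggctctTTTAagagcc
The first form was in 30 tested histone genes, of which 28 were lower (median log2 change -3.80). The second was in 7 genes, all of them H4 genes and all lower (median -4.21). The third was in 7, of which 4 were lower and 2 higher (median -1.68). In all, 50 genes of the histone lists held a stem-loop, 49 of them within 30 bases of the transcript's end, and their median was -3.67. Outside these lists 26 tested genes matched the same letters, with a median of 0.09. In H2BC21 the stem-loop lay 1729 bases before the end of the longer annotated transcript, and its log2 change was -1.69. The 4 genes of the lists without it, among them H1-10 and H3C6, had a median of -0.39.

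The linker histones that bind between nucleosomes led these falls. H1-5 stood at 404, 456 and 563 CPM in DMSO and at 4.10, 3.97 and 15.8 CPM in triptolide, a log2 change of -6.04 ± 0.34 (SE, edgeR adjusted p = 3.73e-11). H1-3 went from 127, 147 and 112 CPM to 1.62, 1.59 and 2.50 CPM (-6.04 ± 0.26, adjusted p = 2.41e-12). H1-2 kept more of its level, with 423, 472 and 473 CPM in DMSO and 25.8, 25.1 and 35.9 CPM in triptolide (-3.98 ± 0.14, adjusted p = 1.93e-13). In each of these genes the lowest DMSO library lay more than 10-fold above the highest triptolide library, and untreated H1-5 averaged 505 ± 43 CPM (SD, n = 3), close to DMSO. H1-4 fell by 5.33. Replicate 3 of triptolide kept the highest level in H1-5, H1-3, H1-4, H4C3 and H4C5, at 22.3 CPM for H4C5 against 4.999 and 6.36 CPM in the others.

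The linker histone gene H1-10 changed by 0.67, which missed the threshold (edgeR adjusted p = 0.111) but passed it with fewer libraries in the fit (0.00115 with the 6 compared, 0.00278 with the 9 of the line), without the low-count filter (0.00522) and without replicate 2 of DMSO (0.0466). The replacement histone gene H3-3A, expressed outside S phase, rose on the TMM scale from 58.3, 80.4 and 77.99 to 119, 155 and 135 CPM (0.92 ± 0.11), which turned to -0.55 on the mitochondrial scale. The core histones that went against the rest were mostly near silence. H2AC11 had 0, 1 and 1 counts in DMSO and 13, 13 and 10 in triptolide, and H3C8 1, 3 and 3 against 8, 14 and 10. H4C9 was the exception in level, at 5.85, 15.7 and 13.03 CPM in DMSO and 19.5, 43.6 and 31.9 CPM in triptolide (1.49 ± 0.15), though on the mitochondrial scale it was at 0.03 and not called (edgeR adjusted p = 0.944). SLBP mRNA fell from 45.2, 55.97 and 72.5 to 16.1, 38.4 and 30.6 CPM (-1.07 ± 0.17, edgeR adjusted p = 2.22e-05).

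**Figure D2:**
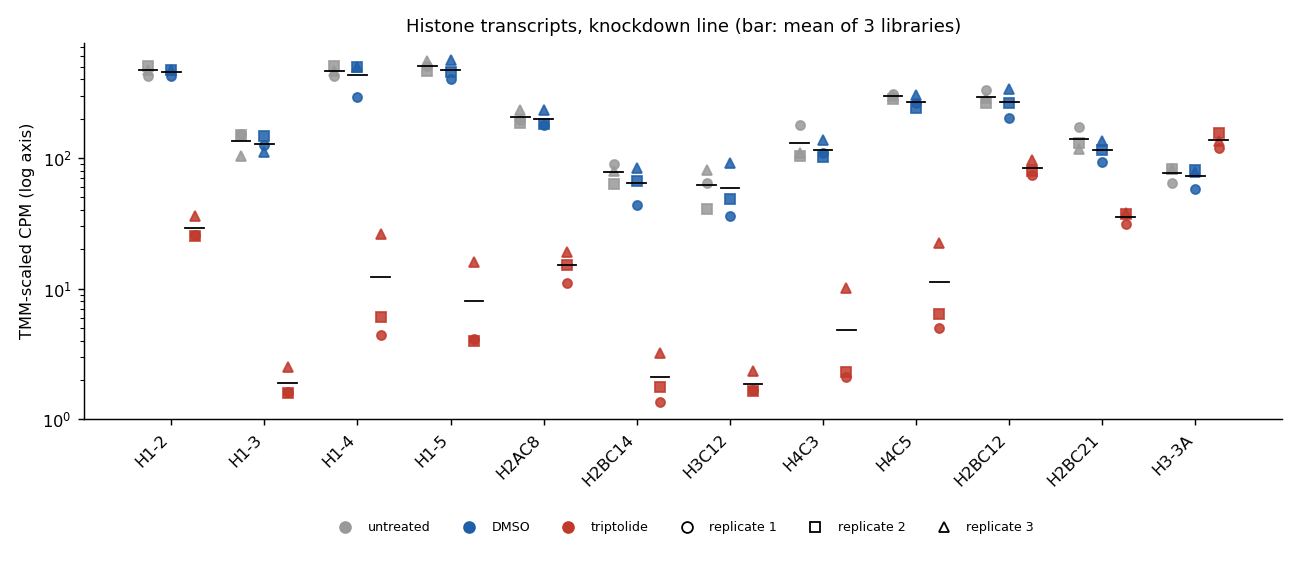
TMM-scaled CPM on a log axis for histone genes in the untreated (grey), DMSO (blue) and triptolide (red) libraries of the knockdown line, with a marker per replicate number and a bar at the mean of 3 libraries. H1-5 lies between 404 and 563 CPM in DMSO and between 3.97 and 15.8 CPM in triptolide, while H3-3A lies above its DMSO level.

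The 4 linker histone promoters are shown because these genes fell together, and they were chosen by that fall. Each line gives the 150 bases before the start site in RefSeq (GRCh38.p14), on the gene's strand, and capitals mark the TATA box TATAAA, the CCAAT box CCAAT and the H1 box AAACACA, read on both strands.
H1-2, chr6:26056471-26056620, minus strand: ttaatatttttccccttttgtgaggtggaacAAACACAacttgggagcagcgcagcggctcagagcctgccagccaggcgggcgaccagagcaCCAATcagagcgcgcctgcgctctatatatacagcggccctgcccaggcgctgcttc
H1-3, chr6:26234988-26235137, minus strand: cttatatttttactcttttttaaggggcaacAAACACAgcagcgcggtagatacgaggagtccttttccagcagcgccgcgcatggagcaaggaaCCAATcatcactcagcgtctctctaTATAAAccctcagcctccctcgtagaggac
H1-4, chr6:26156179-26156328, plus strand: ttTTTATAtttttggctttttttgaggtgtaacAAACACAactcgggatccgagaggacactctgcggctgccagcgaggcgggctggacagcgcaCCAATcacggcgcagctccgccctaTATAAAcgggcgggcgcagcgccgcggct
H1-5, chr6:27867589-27867738, minus strand: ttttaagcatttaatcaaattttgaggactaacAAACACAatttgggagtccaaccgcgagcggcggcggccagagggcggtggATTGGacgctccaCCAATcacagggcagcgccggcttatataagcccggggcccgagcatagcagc
AAACACA began 117 to 119 bases before the start in all 4, and a CCAAT box 53 to 57 bases before it. TATAAA was found only in H1-3, 30 bases before the start, and in H1-4, 29 and 148 bases before it. Among 35116 RefSeq promoters, 2.71% held AAACACA in this window, 23.5% a CCAAT box and 6.71% TATAAA. Of 40 promoters of histone genes that were lower, 4 held AAACACA (those shown), 33 (82.5%) a CCAAT box and 23 (57.5%) TATAAA. Promoters of histone genes that were not lower were not counted, so whether these shares go with the fall was not tested.

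Luminal transcription factors set the identity of this cell type, and 23 of 25 were lower and 1 higher, with a median log2 change of -1.45. XBP1, which also drives secretory and unfolded protein genes, had 488, 553 and 482 CPM in DMSO and 24.8, 39.7 and 30.1 CPM in triptolide, a log2 change of -4.04 ± 0.16 (SE, edgeR adjusted p = 3.26e-13). FOXA1, a pioneer factor that opens chromatin for the estrogen receptor, fell from 73.9, 90.3 and 91.4 to 6.26, 10.6 and 8.83 CPM (-3.33 ± 0.16, adjusted p = 8.41e-12). For both genes the 3 triptolide libraries were similar and far below all DMSO libraries. Smaller falls were called for EHF (-2.40 ± 0.19) and GRHL2 (-1.73 ± 0.12), factors of epithelial genes, and for TRPS1 (-1.94 ± 0.17), GATA3 (-1.54 ± 0.13) and ESR1 (-1.32 ± 0.12), the estrogen receptor itself, at 69.8, 60.1 and 65.3 CPM in DMSO and 30.7, 22.7 and 25.3 CPM in triptolide. CREB3L4 alone rose, by 0.56, with overlapping libraries, and it lost the call without the replicate block (edgeR adjusted p = 0.215).

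Estrogen receptor target genes numbered 18 lower and 4 higher of 32 (median -0.85). XBP1 is in this list too. KCNK5, a potassium channel, fell from 113, 34.8 and 60.05 to 15.1, 9.44 and 8.33 CPM (-2.56 ± 0.17). The corepressor NRIP1 (-2.12 ± 0.22), the ubiquitin ligase SIAH2 (-2.05 ± 0.14) and GREB1 (-1.004 ± 0.21), a cofactor of the receptor, were lower as well. The 4 that were higher are PKIB and the mRNAs of the secreted or lysosomal proteins TFF1, TFF3 and CTSD. Without the block TFF1 (edgeR adjusted p = 0.0953) and CTSD (0.25) were not called, which left 1 higher, and on the mitochondrial scale 0 were higher and 28 lower, with PKIB, TFF1 and CTSD below zero. TFF3 was at 6.98, 10.5 and 2.90 CPM in DMSO and 24.7, 24.3 and 8.76 CPM in triptolide, higher within each replicate pair though the libraries overlap (1.55 ± 0.19, edgeR adjusted p = 1.19e-06, and 0.062 without the block). The keratins of this cell type moved little, and their libraries overlap: KRT8 changed by 0.54 ± 0.14 and KRT18 by -0.56 ± 0.16 on the log2 scale. Neither keratin passed the threshold without the block, nor KRT18 without replicate 2 of triptolide (edgeR adjusted p = 0.0505).

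**Figure D3:**
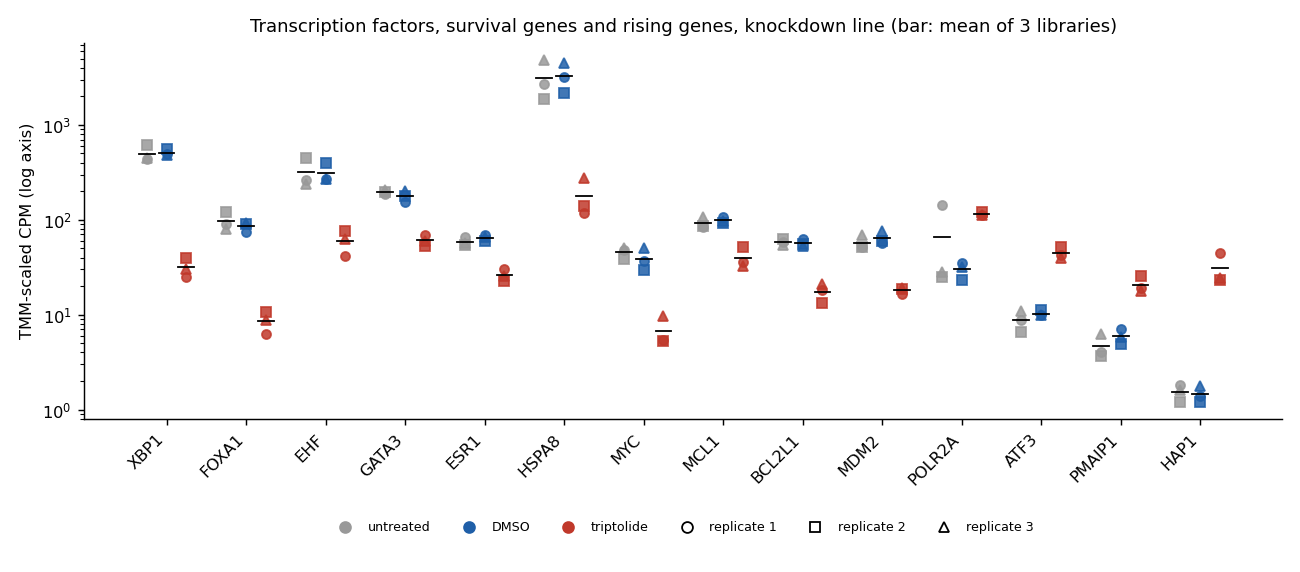
TMM-scaled CPM on a log axis for transcription factor, survival and rising genes in the untreated (grey), DMSO (blue) and triptolide (red) libraries of the knockdown line, with a marker per replicate number and a bar at the mean of 3 libraries. XBP1 drops from 482 to 553 CPM in DMSO to 24.8 to 39.7 CPM in triptolide, and 1 untreated library has POLR2A at 145 CPM, above the DMSO range of 23.2 to 35.0 CPM.

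Immediate early genes, whose mRNAs decay within minutes to hours, did not move as a block: 11 of 43 were higher and 13 lower, near the share over all genes. MYC, the growth regulator with a very short-lived mRNA, fell from 37.2, 29.5 and 49.9 to 5.36, 5.28 and 9.66 CPM (-2.53 ± 0.17, edgeR adjusted p = 4.85e-10). SOX9 (-1.69 ± 0.15) and the antiproliferative gene BTG1 (-1.85 ± 0.18) were lower too. ATF3, a stress-induced repressor, went the other way, from 9.82, 11.1 and 9.82 to 42.5, 51.8 and 39.2 CPM (2.11 ± 0.18, adjusted p = 7.58e-09). FOSB stood at 0.746, 0.469 and 0.284 CPM in DMSO and 6.44, 7.43 and 6.72 CPM in triptolide (3.85 ± 0.43), EGR1 at 0.457, 0.138 and 0.114 and 2.25, 2.34 and 2.58 CPM (3.49 ± 0.49). Both were close to silence in DMSO, so the size of these rises rests on few counts there and their calls carry little weight. FOS rose by 2.07 ± 0.43. HBEGF, a ligand of the EGF receptor, was among the 10 largest rises, at 1.83, 1.38 and 2.41 CPM in DMSO and 16.8, 21.7 and 17.6 CPM in triptolide (3.35 ± 0.29). On the mitochondrial scale FOSB and HBEGF kept their calls, while ATF3 (edgeR adjusted p = 0.0803) and FOS (0.0622) lost theirs.

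Of 17 tested BCL2 family genes, which decide cell death at mitochondria, 5 were lower (29.4%) and 4 higher (23.5%), near the shares over all genes of 28.1% and 29.1%. By library totals 14 were lower and 1 higher. BCL2L1, which encodes the survival protein BCL-xL, was at 62.2, 54.98 and 52.7 CPM in DMSO and 18.3, 13.1 and 21.2 CPM in triptolide (-1.69 ± 0.21, edgeR adjusted p = 9.73e-07). MCL1, a survival protein with a short-lived mRNA, went from 108, 91.4 and 96.9 to 35.6, 51.5 and 32.97 CPM (-1.32 ± 0.20). PMAIP1, which encodes the MCL1 antagonist NOXA, rose from 7.15, 4.89 and 5.79 to 19, 25.4 and 17.95 CPM (1.78 ± 0.24), and the pro-apoptotic BOK fell (-0.97 ± 0.17). Among caspases and inhibitors of apoptosis, 7 of 21 were lower and 4 higher, with falls in the inhibitors XIAP (-1.02 ± 0.16) and BIRC2 (-1.01 ± 0.14) and in the death receptor gene FAS (-1.85 ± 0.22).

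Of 31 p53 pathway genes, 14 were lower and 6 higher. The negative regulators of p53 were among the lower: MDM2 from 57.3, 59.3 and 76.9 to 16.4, 18.6 and 19.1 CPM (-1.84 ± 0.15) and MDM4 from 60.3, 61.2 and 59.8 to 12.6, 11.3 and 13.6 CPM (-2.27 ± 0.14). The kinase gene PLK2 changed by -3.20 ± 0.34. In the NF-kB list 13 of 22 were lower and 4 higher (median -0.74), against 4 and 1 without the block. The subunit gene RELA (-1.27 ± 0.16) and the inhibitor gene NFKBIA (-1.34 ± 0.14) fell together, and IRF1, a transcription factor of the interferon response, rose from 8.95, 4.78 and 2.81 to 17.1, 16.2 and 13.3 CPM (1.64 ± 0.24).

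The target of the drug sits in TFIIH, whose 9 tested subunit genes held 5 lower and 3 higher. ERCC3 was at 29.6, 33.5 and 33.6 CPM in DMSO and 21.5, 21.5 and 25.8 CPM in triptolide (-0.49 ± 0.13, edgeR adjusted p = 0.00262). CDK7, the kinase of the complex, fell far more, from 34.8, 38.3 and 33.4 to 6.44, 8.32 and 8.23 CPM (-2.22 ± 0.16). Of the 11 tested RNA polymerase II subunit genes 7 were higher and 0 lower by edgeR, while 1 was higher and 4 lower when scaled to library totals and 0 higher and 7 lower on the mitochondrial scale. POLR2A, the largest subunit, led them, at 35.02, 23.2 and 32.1 CPM in DMSO and 112, 121 and 111 CPM in triptolide (1.99 ± 0.35, adjusted p = 7.18e-05). It stayed positive on the mitochondrial scale, at 0.51, where it missed the threshold (adjusted p = 0.165). The untreated libraries were at 145, 25.2 and 27.9 CPM, so replicate 1 stands apart there. POLR2G (0.76 ± 0.13) and POLR2L (1.18 ± 0.24) rose less. Among P-TEFb, which releases paused polymerase, and its regulators, 11 of 21 were lower and 2 higher (median -0.55), with falls in NELFA (-2.21 ± 0.19), a pausing factor, and CDK12 (-1.67 ± 0.13), an elongation kinase.

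Mitotic genes fell nearly throughout: 44 of 49 were lower and 0 higher by edgeR (median -0.98). The checkpoint kinase gene TTK was at 45.1, 74.9 and 54.9 CPM in DMSO and 3.87, 7.76 and 8.15 CPM in triptolide (-3.17 ± 0.14, edgeR adjusted p = 3.36e-12). CCNB1, the mitotic cyclin B1, fell from 152, 153 and 194 to 20.2, 20.9 and 45.4 CPM (-2.62 ± 0.18). The spindle motor KIF11 (-2.43 ± 0.15), the kinetochore gene CENPF (-2.22 ± 0.13), the checkpoint gene BUB1B (-2.53 ± 0.17) and the kinase PLK1 (-2.62 ± 0.24) followed. In bulk RNA, fewer cells in a cycle stage and less RNA per cell cannot be told apart.

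Of 46 S phase genes 19 were lower and 10 higher on the TMM scale (median -0.15), against 36 and 0 by library totals and 46 and 0 on the mitochondrial scale. POLD3, a subunit of DNA polymerase delta (-2.52 ± 0.20), the clamp loader genes RFC1 (-2.12 ± 0.15) and RFC4 (-1.55 ± 0.14) and GINS3 of the replicative helicase (-2.43 ± 0.17) fell, whereas MCM2, another helicase gene, rose by 0.52 ± 0.13 on the TMM scale, was below zero on both other scales (-0.19 and -0.96) and lost its call without the block (edgeR adjusted p = 0.0918). Of 28 genes of the G1 machinery, 10 were lower (35.7%) and 8 higher (28.6%), against 28.1% and 29.1% over all genes. The median of this list was 0.04, near the 0.05 over all genes. The CDK inhibitor genes moved apart: CDKN1B (p27) fell from 21.4, 34.7 and 22.1 to 3.87, 5.89 and 4.72 CPM (-2.42 ± 0.17), and CDKN2B (p15) rose from 2.45, 1.33 and 2.02 to 10.4, 11.7 and 15.8 CPM (2.74 ± 0.22). The repressor E2F4 fell as well (-1.97 ± 0.15). DNA repair and checkpoint genes held 31 lower and 4 higher of 52 (median -0.61), among them the helicase BLM (-2.17 ± 0.15) and TOPBP1 (-1.84 ± 0.14), which activates the ATR kinase.

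Among heat shock chaperones 8 of 21 were lower and 3 higher, and 1 of them was extreme. HSPA8, the constitutive HSC70 chaperone, was at 3189.6, 2144 and 4536 CPM in DMSO and 117, 138 and 276 CPM in triptolide (-4.24 ± 0.22, edgeR adjusted p = 2.01e-11). The snoRNA SNORD14E, encoded in an HSPA8 intron, changed by -6.50 ± 0.53. DNAJB1, its co-chaperone, fell from 58.8, 44.2 and 66.6 to 14.9, 19.03 and 18.7 CPM (-1.65 ± 0.20). HSPA2, a testis-enriched HSP70, rose from 1.90, 1.85 and 2.87 to 12.5, 16.3 and 21.9 CPM (2.95 ± 0.24).

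Stress and metabolic lists held genes in both directions. In the ATF4 list 11 of 34 were lower (32.4%) and 6 higher (17.6%), against 28.1% and 29.1% over all genes, with a median of -0.17. The pseudokinase TRIB3 (-2.34 ± 0.17) and the transcription factors CEBPG (-1.92 ± 0.16), CEBPB (-1.98 ± 0.19) and ATF4 itself (-0.87 ± 0.16) were among the lower, and ATF3 (2.11 ± 0.18) was among the higher. In the unfolded protein response list, 10 of 22 were higher and 5 lower (median 0.28, and -1.19 on the mitochondrial scale). XBP1, a member, and HERPUD1, of the degradation machinery of the endoplasmic reticulum (-1.73 ± 0.14), fell. NRF2 antioxidant genes had 9 higher and 5 lower of 18 (median 0.42, and -0.29 by library totals). The lower ones included KEAP1, the adaptor that marks NRF2 for decay (-2.07 ± 0.18), and GCLC, of glutathione synthesis (-1.98 ± 0.16). Cholesterol synthesis genes had 13 higher and 8 lower of 28 (median 0.46, and -0.25 by library totals), and among the lower were SQLE (-2.05 ± 0.25), the epoxidase, and INSIG1 (-1.59 ± 0.17), which holds SREBP back. SLC38A2, an amino acid transporter, had one of the 6 smallest p-values among falls, at 98.3, 170.1 and 109 CPM in DMSO and 11.5, 22.9 and 15.3 CPM in triptolide (-2.93 ± 0.13, edgeR adjusted p = 3.15e-12).

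Genes of mRNA turnover and splicing were mostly lower. In the decay machinery list 31 of 47 were lower and 3 higher (median -0.63). The deadenylase subunits CNOT2 (42.3, 56.6 and 52.8 CPM in DMSO, 6.80, 10.1 and 9.26 CPM in triptolide, -2.54 ± 0.13) and CNOT6L (-2.36 ± 0.18) and the exosome gene EXOSC3 (-1.76 ± 0.15) were among the lower. Of 16 genes for proteins that bind AU-rich or related elements, 6 were lower and 0 higher by edgeR, among them the Pumilio repressor PUM2 (-2.23 ± 0.23). SR splicing factors and their kinases had 11 lower and 4 higher of 17. SRSF4 (-2.05 ± 0.14) and SRSF3 (-1.53 ± 0.16) fell, and the kinase CLK1, whose transcripts are partly held in the nucleus with retained introns, rose from 17.9, 17.6 and 14.3 to 37.7, 48.6 and 30.7 CPM (1.21 ± 0.21). Zinc finger genes named ZNF, mostly repressors of transcription with short-lived mRNAs, made the largest list: 304 of 503 (60.4%) were lower and 55 (10.9%) higher, with a median of -0.68. ZNF165 went from 20.5, 23.3 and 20.5 to 0.856, 0.982 and 1.68 CPM (-4.16 ± 0.25) and ZNF45 from 15.7, 15.99 and 15.3 to 1.40, 1.45 and 1.61 CPM (-3.39 ± 0.17). ZNF425 was an exception and rose to 20.9, 32.2 and 29.9 CPM from 2.67, 3.62 and 4.77 CPM (2.91 ± 0.18).

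Ribosomal protein and energy genes formed the other side. Of 80 tested cytoplasmic ribosomal protein genes 75 were higher and 2 lower on the TMM scale (median 0.81), against 4 and 5 when scaled to library totals (median 0.09) and 1 and 36 on the mitochondrial scale (median -0.67). RPL12 stood at 794, 1177 and 882 CPM in DMSO and 1871, 2525 and 1628 CPM in triptolide (1.07 ± 0.13). The 2 lower ones are RPL36A and RPL17, and RPL17 lost its call without the block and without replicate 1 or 2 of DMSO or replicate 1 or 3 of triptolide. Nuclear genes of oxidative phosphorylation had 65 higher and 3 lower of 78 (median 0.73), against 1 and 12 by library totals and 0 and 44 on the mitochondrial scale, with SDHC of complex II at 0.91 ± 0.12 and UQCRQ of complex III at 0.91 ± 0.13 on the TMM scale. Mitochondrial ribosomal protein genes did not share this pattern, with 15 higher and 26 lower of 78 (median -0.07), and the falls of MRPL46 (-1.64 ± 0.20) and MRPS31 (-1.46 ± 0.17) were among the largest. Glycolysis enzymes had 10 higher and 1 lower, HK2, of 17, with a median of 0.43 that was negative when scaled to library totals (-0.29) or to mitochondrial mRNAs (-1.05). TPI1 went from 344, 376 and 292 to 864, 520.1 and 522 CPM (0.88 ± 0.17). Proteasome genes had 15 higher and 6 lower of 38 (median 0.22, below zero on both other scales), with PSMC6 the lowest at -1.63 ± 0.15.

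Transcripts that RNA polymerase II does not make were higher as groups. All 13 mitochondrially encoded mRNAs were higher (median 1.47 on the TMM scale, 0.77 by library totals). MT-CO1, a cytochrome oxidase subunit, was at 2240.1, 2533 and 2380.1 CPM in DMSO and 6820.2, 4765 and 8463 CPM in triptolide (1.42 ± 0.22), and MT-ND3 changed by 1.66 ± 0.23. The ribosomal RNAs MT-RNR1 (1.86 ± 0.29) and MT-RNR2 (1.67 ± 0.18) rose alike against DMSO. MT-RNR1 was at 62296, 29692 and 31542 CPM in the untreated libraries, where replicate 1 lay above replicate 1 of triptolide (59822 CPM). Of 12 tested RNA polymerase III transcripts 10 were higher and 0 lower by edgeR (median 1.72, and 0.25 on the mitochondrial scale). RNU6-2, a U6 splicing RNA, went from 9.03, 4.69 and 7.10 to 79.3, 35.2 and 35.3 CPM (2.82 ± 0.21). The 7SL RNA gene RN7SL2 was higher in each replicate pair, but its libraries overlap across pairs (5421, 2533 and 1734 CPM in DMSO, 28054, 6712 and 2888 CPM in triptolide, 1.53 ± 0.22, and edgeR adjusted p = 0.0907 without the block). Such RNAs have near-identical copies, and reads with several matches are outside the gene counts, so reads shared by copies are missing there. RN7SL5P, a 7SL copy among the 10 largest rises, rested on replicate 1 of triptolide, at 111, 4.44 and 1.54 CPM.

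**Figure D4:**
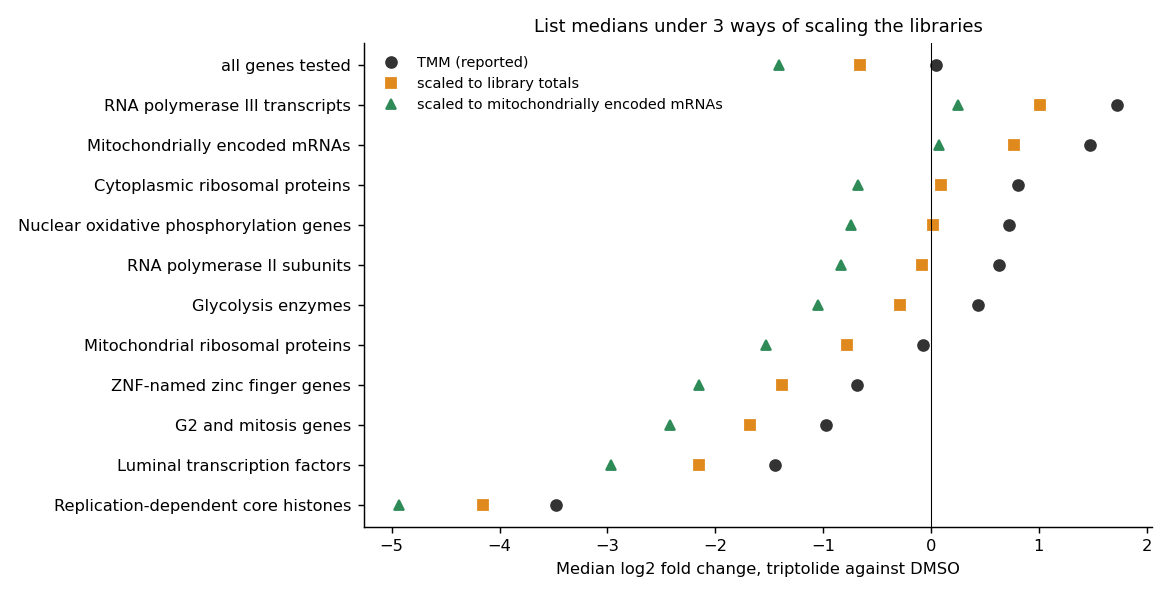
Median log2 fold change of 12 sets of genes under TMM (circles), library totals (squares) and mitochondrially encoded mRNAs (triangles) as the scale. Histones, luminal factors and mitotic genes lie below 0 under all 3, whereas ribosomal protein genes move from 0.81 to 0.09 and -0.67.

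Other noncoding RNAs were mixed. Box C/D small nucleolar RNAs, cut from introns of host genes, had 24 lower and 2 higher of 56 tested (median -0.84), and H/ACA and Cajal body RNAs 14 lower and 16 higher of 69, or 19 and 4 by library totals. Libraries of this kind catch RNAs this short poorly. Among host genes 10 of 30 were lower (33.3%) and 11 higher (36.7%), against 28.1% and 29.1% over all genes. SNHG1 fell from 177, 107 and 138 to 38.6, 28.1 and 35.9 CPM (-2.03 ± 0.13). NEAT1, the scaffold of paraspeckles, was at 610.3, 417 and 98.1 CPM in DMSO and 99.4, 61.3 and 40.5 CPM in triptolide (-2.32 ± 0.30), lower in each replicate pair though replicate 3 of DMSO overlaps the triptolide range. NORAD, a decoy for Pumilio proteins, changed by -1.13 ± 0.13, and MALAT1, a long-lived nuclear RNA, by 0.43 ± 0.34, which missed the threshold (edgeR adjusted p = 0.284) but passed it with the 6 libraries compared alone (0.00533), with the 9 of the line (0.025) and without the low-count filter (0.0117).

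The largest rises were in genes close to silence in DMSO. DDR2, a collagen receptor kinase of mesenchymal cells, had 0.313, 0.193 and 0.227 CPM in DMSO and 14.1, 13.3 and 7.65 CPM in triptolide (5.52 ± 0.44, edgeR adjusted p = 3.43e-09). HAP1, which encodes the huntingtin-associated protein of neurons, went from 1.40, 1.22 and 1.79 to 45.03, 23.3 and 24.5 CPM (4.35 ± 0.21, adjusted p = 9.77e-12). DDN, a dendrite gene (4.41 ± 0.29), GPR179, of retinal bipolar cells (3.57 ± 0.24), and DNAH10, an axonemal dynein (3.48 ± 0.28), were also under 2 CPM in each DMSO library. These genes were picked for libraries that do not overlap and for moving alike in 3 pairs, and those near 0 CPM in DMSO passed the low-count filter through the triptolide libraries, so the p-value of DDR2 carries little weight. DCST2 (2.94 ± 0.28) is among the 10 too, but it overlaps a more abundant gene on the other strand that fell, ZBTB7B (-0.83). DNAH10 overlaps CCDC92 on the other strand, which rose (0.90). Rises from a measurable level came in CSRNP2, a nuclear protein gene, from 15.1, 15.7 and 14.6 to 80.7, 106 and 88.6 CPM (2.60 ± 0.15), and in CRISPLD2, a secreted protein gene, from 16.8, 17.1 and 14.3 to 73.3, 74.2 and 58.4 CPM (2.09 ± 0.11). The vesicle gene VAMP1, at 2.29, 1.63 and 1.56 CPM in DMSO, rose by 2.88 ± 0.19, and it overlaps TAPBPL on the other strand, which rose too (1.70).

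Genes without any count in a group were also uneven. Of 24782 genes with 0 counts over the DMSO libraries, 1017 had at least 10 counts over the triptolide libraries, while of 19543 with 0 counts in triptolide 257 had at least 10 in DMSO. Markers of cell types that the line should not contain were part of this. Leukocyte markers (6 of 14 tested) summed to 4.68 to 7.85 CPM in DMSO and 11.7 to 19.8 CPM in triptolide, endothelial markers (4 of 7) to 11.7 to 18.5 and 15.6 to 29.2 CPM, and stromal markers (7 of 11) to 17.03 to 24.5 and 26.5 to 43.7 CPM. Basal and myoepithelial markers (9 of 11) summed to 93.6 to 137 CPM in DMSO and 144 to 167 CPM in triptolide. Of the 11 stromal markers, 6 were at 0 in DMSO and 2 in triptolide, DCN and LUM, which were at 0 in both groups. FAP had 0 counts in each DMSO library and 36, 41 and 18 in triptolide, and COL3A1 0 against 11, 14 and 4. The kinase gene TEK, for example, had 0 counts in each DMSO library and 24, 21 and 27 in triptolide, and the integrin gene ITGAM 12, 4 and 2 against 122, 80 and 81. Many of these genes passed the low-count filter through the triptolide libraries alone, so their calls carry no weight, and the part of other cells in the result was not tested.

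Among interferon-stimulated genes, which respond to unedited double-stranded RNA, 23 of 45 were lower and 8 higher (median -0.78), against 6 and 0 without the block and 32 and 0 by library totals. Replicate 3 stood far below replicates 1 and 2 of both groups in IFIT1, IFIT3 and IFI27. IFIT1 was at 285, 283 and 9.97 CPM in DMSO and 34.4, 30.3 and 2.43 CPM in triptolide, so replicate 3 was low in DMSO as well (-2.88 ± 0.50, edgeR adjusted p = 6.89e-05, and 0.17 without the block). IFIT3 behaved alike, with 104, 71.3 and 4.32 CPM in DMSO and 3.96, 2.85 and 0.715 CPM in triptolide (-4.35 ± 0.51). IFIT5 (-2.68 ± 0.22) and ZNFX1 (-1.40 ± 0.16), a helicase that senses viral RNA, fell in all pairs. Replicate 3 was low in both groups for IFIT5 too, at 47.5, 57.2 and 9.40 CPM in DMSO and 5.81, 7.39 and 2.47 CPM in triptolide. IFI27, a mitochondrial interferon-induced protein, went the other way within each pair, from 219, 146 and 2.33 to 538, 259.8 and 8.69 CPM (1.24 ± 0.33), and was not called without the block (adjusted p = 0.624).

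Features of the transcript were related to the direction of change across 14637 protein-coding genes with a sequence. With a 3′ untranslated region of up to 200 bases 41.8% were higher and 19.9% lower (median 0.38), and with one over 4000 bases 20.1% and 43.7% (median -0.29). Transcripts up to 1000 bases long had a median of 0.58, and those over 5000 bases one of -0.29. Genes with a GC content of up to 40% had a median of -0.40, and those over 60% one of 0.16. The AU-rich heptamer TATTTAT marks many short-lived mRNAs. Without it 28.8% of genes were lower (median 0.09), with 1 copy 40.9% (median -0.22) with 3 to 4 copies 46.9% (median -0.40) and with 5 or more 42.9% (170 genes, median -0.35). Within regions of over 2000 and up to 4000 bases, 35.7% without and 45.1% with a heptamer were lower. Single-exon genes, which include the histones, had 175 of 350 lower and a median of -0.66. Length, base composition and heptamers are related to each other, and these shares are descriptions without a test.

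**Figure D5:**
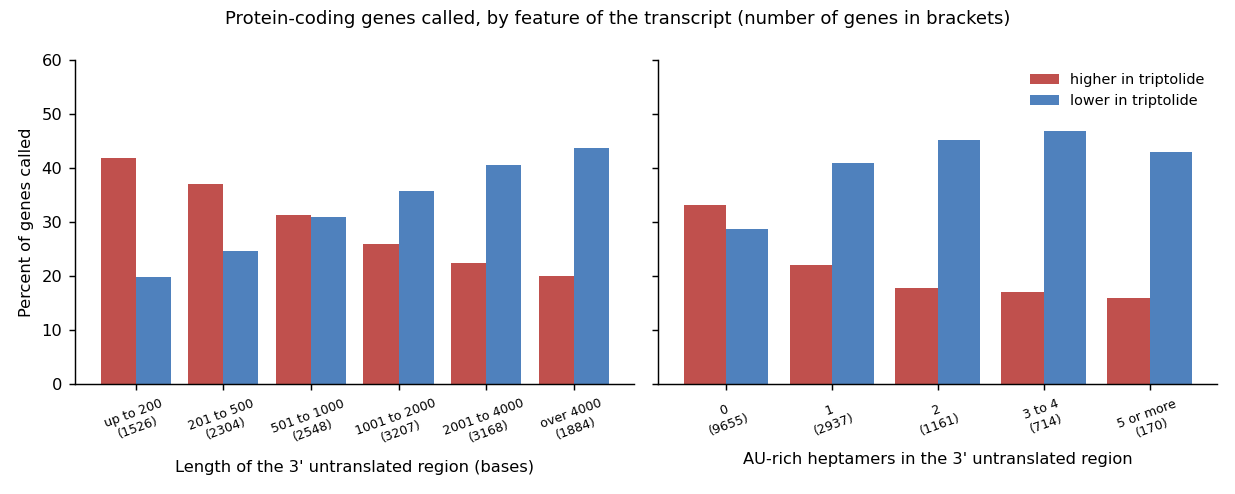
Percent of protein-coding genes called higher (red) or lower (blue) in triptolide by length of the 3′ untranslated region (left) and by number of AU-rich heptamers in it (right), with the number of genes in brackets. The lower share rises from 19.9% to 43.7% with length, and from 28.8% without a heptamer to 46.9% with 3 to 4, and is 42.9% with 5 or more.

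Processed pseudogenes, copies of mRNAs without introns, had 437 of 1365 higher and 126 lower (median 0.68), and long noncoding RNAs 1035 of 3511 higher and 588 lower (median 0.24), against 4227 and 4935 of 14704 protein-coding genes (median -0.04). Reads of a processed pseudogene and of its parent gene can be exchanged in alignment.

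The response was compared with that of the control line through the interaction of line and treatment. Of 21285 genes 1 was called (0.0047%) by edgeR with the block and 846 (3.98%) had an unadjusted p under 0.05. DESeq2 called 3 higher and 1 lower, and without the block edgeR called 0. Of the genes above, 5 had these log2 changes in the control line: -5.67 for H1-5, -3.87 for XBP1, -3.78 for HSPA8, 1.95 for POLR2A and 4.69 for HAP1. ADAR changed by -0.24 in the control line, and its difference of -0.77 between the lines was not called (edgeR adjusted p = 1). The gene called is CUBN, an endocytic receptor of kidney and gut, with 1, 23 and 8 counts in the DMSO libraries of the knockdown line and 104, 133 and 75 in triptolide. Its log2 change was 4.14 ± 0.40 here and 0.94 ± 0.27 in the control line, where it started from a higher mean of 11.7 CPM and reached 21.2 CPM. Without any single DMSO library of the knockdown line, or any single control library in DMSO or triptolide, this call was lost (0 genes called).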

How the data were processed

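Total RNA of 18 ZR-75-1 samples was sequenced with a stranded kit, per the labels. Each library has a deposited table of raw gene counts. The submitters' processing notes name hg19, STAR 2.4.2a for alignment, HTSeq 0.6.1 for the authors' counting, and DESeq2 1.4.5 with R 3.1. Whether HTSeq counted by strand is not given in the sources used here, so reads of overlapping genes on opposite strands cannot be told apart. Of 147 genes named, 49 overlap such a gene with at least 50 counts. The 5 tallies at the end of each table were dropped. As shares of gene counts and tallies together, reads in no gene were 5.43% to 11.8% and reads with several matches 10.2% to 21.6% in the 6 libraries. Of 60252 gene IDs, 58822 (97.63%) had a symbol and position in GENCODE 44 mapped to GRCh37.

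Counts were scaled by TMM and tested two-sided in R 4.3.3 by edgeR 4.0.16 (quasi-likelihood). A single model held the 18 libraries, their groups and a block for the replicate number, which left 10 residual degrees of freedom, and genes passed the package's low-count filter. A standard error is the log2 change over the square root of F, and levels are TMM-scaled CPM. Residuals of libraries with the same number correlated at r = 0.307 to 0.688 (45 pairs of libraries from different groups), so the numbers pair the libraries. Those with different numbers correlated at -0.519 to 3.38e-05 (90 pairs). Residuals were taken from group means, so positive values for the same number push these down, and they are no separate support. No library was a copy of a replicate, with chi-square over its degrees of freedom at 56.8 or above. On simulated counts of 20567 genes the fit of triptolide against DMSO in the knockdown line recovered 78% of 100 2-fold and 99% of 100 4-fold changes, with 5 false calls. No other gene had a treatment effect there, whereas 57.1% of genes were called in the data, so recovery and false calls in the data can differ.

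The members and the 46 gene lists were chosen with earlier results of these data known. Among symbols other than pseudogenes that were called, moved the same way in 3 pairs, did not overlap and reached 10 CPM, the 10 largest changes and the 6 smallest p-values in each direction were named, with up to 4 members of each list by p, the interaction call, ADAR, ERCC3 and POLR2A. Some genes that this rule picks are not reported here. Other genes named were chosen after their values were seen. Alternatives were other scalings, no block, no filter, mitochondrial ribosomal RNA left out, fewer libraries, each library left out, and DESeq2 1.42.0.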

Additional observations from a re-analysis of the deposited data

Results flagged for a closer look

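CUBN was the gene whose response differed between the lines by the interaction test: the difference was 3.20 on the log2 scale (edgeR adjusted p = 0.0431), with a rise in 3 of 3 pairs of the knockdown line from 32 counts over the DMSO libraries. Whether its low starting level in this line played a part was not tested.

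Reads that aligned to more than 1 place are outside the gene counts. As a share of gene counts and tallies together, they were 15.1% in the lowest triptolide library and 14.6% in the highest DMSO library of the knockdown line, so every triptolide library lay above every DMSO library. Untreated replicate 2 of the same line, at 15.97%, lay above the lowest triptolide library. Mitochondrial ribosomal RNA and RNA polymerase III transcripts moved the same way, and their part in this was not tested.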

How the results depend on the processing

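Without the replicate block 3560 genes were higher and 4029 lower, all of them among the calls made with it. The block also decided 13 of 147 named genes, which lost their call without it (CREB3L4, CTSD, HK2, IFI27, IFIT1, KRT18, KRT8, MCM2, RN7SL2, RPL17, TFF1, TFF3 and ZBTB7B). List counts shrank too without the block: higher and lower members were 6 and 9 for immediate early genes, 1 and 3 for the BCL2 family, 4 and 8 for p53 genes, 1 and 3 for TFIIH, 2 and 7 for the G1 machinery, 4 and 13 for S phase, 6 and 8 for mitochondrial ribosomal proteins, 4 and 0 for glycolysis, 8 and 2 for the proteasome, 5 and 0 for RNA polymerase III transcripts, 0 and 17 for box C/D RNAs, 3 and 11 for H/ACA RNAs, 4 and 5 for host genes, 2 and 4 for heat shock chaperones, 4 and 4 for the unfolded protein response, 5 and 3 for NRF2 genes, and 4 and 5 for cholesterol genes. Leaving out each library in turn gave 5366 to 5779 higher and 5318 to 5673 lower genes. DESeq2 called 6647 higher and 5649 lower. By library totals 2137 genes were higher and 10921 lower (at least 2-fold, 1813 and 7618), and by mitochondrial mRNAs 1137 and 14614 (1114 and 13253). By library totals CREB3L4 turned to -0.15, KRT8 to -0.17 and MCM2 to -0.19, while CCDC92, CTSD, H3-3A, IFI27, PKIB, POLR2G, POLR2L, SDHC, TFF1, TPI1 and UQCRQ kept their sign and lost their call. By mitochondrial mRNAs CCDC92 turned to -0.56, CLK1 to -0.26, CREB3L4 to -0.90, CTSD to -0.48, H3-3A to -0.55, IFI27 to -0.0915, KRT8 to -0.94, MCM2 to -0.96, PKIB to -0.33, POLR2G to -0.70, POLR2L to -0.28, RPL12 to -0.43, SDHC to -0.56, TFF1 to -0.20, TPI1 to -0.60 and UQCRQ to -0.56. ATF3, CRISPLD2, FOS, H3C8, H4C9, IRF1, PMAIP1, POLR2A, RN7SL2, TAPBPL, TFF3, MT-CO1, MT-ND3, MT-RNR1 and MT-RNR2 stayed positive there but missed the threshold, and H3C6 was called lower. No scaling can say which RNAs changed per cell. For the difference between lines, 1 gene was higher; leaving out 1 library gave 0 to 1, no block 0, DESeq2 3 higher and 1 lower, no low-count filter 11 and 4, and mitochondrial scaling 4 lower genes. For triptolide against DMSO in the knockdown line, 78% of simulated 2-fold changes were recovered, so smaller changes can be missed with 3 libraries per group. The simulation changed few genes, unlike these data, and did not cover the difference between lines.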
